A study of Mus musculus with 8 samples.

Results

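The genes described here are those of the interferon response, with the STAT proteins that carry interferon and cytokine signals to the nucleus and the SOCS proteins that damp them. Members were taken by symbol: the Ifi, Ifit, Ifitm, Oas, Gbp, Irgm, Isg, Irf, Stat and Socs families together with Ifih1, Mx1, Mx2, Rsad2, Usp18, Tap1, Tap2 and Tapbp-type names. The rule found 75 of 18193 measured genes. Membership rested on symbols and on no expression value, though the members were chosen with earlier results of these data known. Each gene was read from its brightest probe set, the group of short probes on the array that names that gene alone.

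Mouse intestinal epithelial cells of strain C57BL/6 were sorted by surface EphB2 into high, medium and low groups, with 2 arrays each. EphB2 is a receptor tyrosine kinase whose level is highest at the base of the crypt and falls towards the villus. Separate cells from mice with EGFP knocked into Lgr5, a marker of stem cells at the crypt base, were sorted into high and low green fluorescence, with 1 array each. The labels give no treatment, age or sex for any group, and no infection or interferon exposure. Each EphB2 group had 1 array in a first hybridization and 1 in a second, and the Lgr5 arrays formed a hybridization of their own. Pairs of values below give the first hybridization first. Values are RMA log2 values, so a difference of 1 is a change of 2-fold, and brightness cannot be compared between genes because each probe set has its own response. The knock-in reads out 1 gene's promoter, and the labels do not say how many animals gave each sample. The p-values therefore speak only of spread among these arrays, part of which may be technical.

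In the interferon response, sensors such as Ifih1 detect foreign nucleic acid and lead to release of interferon. Interferon receptors then act through Janus kinases on STAT proteins, and a complex that holds STAT2 and IRF9 binds the interferon-stimulated response element (ISRE) before genes for antiviral proteins. Type III interferon acts mainly on epithelia, the intestinal lining among them, while SOCS proteins and Usp18 feed back on the receptors.

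The sort markers and epithelial genes were checked first. Lgr5 was higher in EphB2 high than in low cells by 4.25 ± 0.25 (log2, SE) and in the Lgr5 high than in the Lgr5 low array by 4.39. The mean over 10 epithelial markers lay between 13.47 and 13.62 on all 8 arrays. The median of all genes was 7.92 over the EphB2 arrays. None of 11 T cell, 5 B cell and 12 myeloid markers lay above it, and 1 of 10 markers of stroma and endothelium did, Vim. Among the 75 members, 44 lay above this median and 31 at or below it, with means from 2.28 to 13.43.

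Promoter sequences are shown first, for strongly called members picked because they hold the letters of the element through which interferon acts. RefSeq promoters were found for 57 of the 75 members, 72 promoters in all. The 250 bases before each start were searched on both strands for the core of the ISRE, GAAANNGAAA, and for the STAT site TTCNNNGAA, which can overlap it. The 6 shown belong to the members with the smallest adjusted p between EphB2 high and low cells that hold either motif. They run 5′ to 3′ on the strand of the gene, with motif matches in capitals:
Ifit1: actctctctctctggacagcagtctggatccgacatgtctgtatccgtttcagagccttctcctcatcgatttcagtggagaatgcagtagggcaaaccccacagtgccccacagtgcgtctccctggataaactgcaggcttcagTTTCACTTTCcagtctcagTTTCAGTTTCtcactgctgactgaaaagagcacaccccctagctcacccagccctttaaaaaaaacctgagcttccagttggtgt
Ifit1bl2: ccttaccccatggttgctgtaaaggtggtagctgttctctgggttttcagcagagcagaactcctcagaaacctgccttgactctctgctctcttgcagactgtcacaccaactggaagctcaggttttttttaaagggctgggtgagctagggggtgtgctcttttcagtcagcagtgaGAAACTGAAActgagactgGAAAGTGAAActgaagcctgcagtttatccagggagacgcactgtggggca
Ifit3: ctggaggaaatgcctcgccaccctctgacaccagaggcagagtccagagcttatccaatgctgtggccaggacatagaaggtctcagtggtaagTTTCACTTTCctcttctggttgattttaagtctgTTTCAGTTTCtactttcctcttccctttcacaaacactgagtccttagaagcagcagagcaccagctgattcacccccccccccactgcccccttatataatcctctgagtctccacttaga
Ifit1bl1: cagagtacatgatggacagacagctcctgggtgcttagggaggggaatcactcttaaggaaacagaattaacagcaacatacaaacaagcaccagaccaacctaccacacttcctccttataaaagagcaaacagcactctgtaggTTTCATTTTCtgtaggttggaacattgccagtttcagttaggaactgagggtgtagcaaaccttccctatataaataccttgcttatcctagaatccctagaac
Rsad2: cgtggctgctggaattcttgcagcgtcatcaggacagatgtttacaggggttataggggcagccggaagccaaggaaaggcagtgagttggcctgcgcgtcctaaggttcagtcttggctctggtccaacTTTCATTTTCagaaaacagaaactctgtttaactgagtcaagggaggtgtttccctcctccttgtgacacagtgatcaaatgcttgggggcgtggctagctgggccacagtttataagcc
Oas3: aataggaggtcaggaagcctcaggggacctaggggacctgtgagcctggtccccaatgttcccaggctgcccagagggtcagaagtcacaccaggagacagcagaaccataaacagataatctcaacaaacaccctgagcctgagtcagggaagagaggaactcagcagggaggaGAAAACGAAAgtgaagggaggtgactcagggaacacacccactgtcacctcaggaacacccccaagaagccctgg

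All 6 are RefSeq windows on build GRCm38.p6. Ifit1 has chr19:34640639-34640888 on the plus strand, and Ifit1bl2 has chr19:34640744-34640993 on the minus strand. These windows share 145 bases, all those between the starts, because the genes are transcribed away from each other. The same pair of ISRE matches is thus read from both strands, beginning 104 and 85 bases before the Ifit1 start and 70 and 51 bases before the Ifit1bl2 start. Ifit3 (chr19:34583279-34583528, plus strand) has matches 156 and 122 bases before its start, and Ifit1bl1 (chr19:34601969-34602218, minus strand) has 1 at 104 bases. Rsad2 (chr12:26456453-26456702, minus strand) has 1 at 120 bases, and Oas3 (chr5:120777660-120777909, minus strand) has 1 at 75 bases. No match to the STAT site occurs in these 6 windows. Oasl1 had a smaller adjusted p than Oas3 but is not shown, because its window held neither motif. Nor did the windows of Irf7, Stat3, Ifih1 and Oasl2, which were also lower in EphB2 high cells.

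The ISRE core was present in 31.9% of the members' promoters and in 2.98% of all 32851 promoters in the table. Among promoters of members called lower in EphB2 high cells the share was 36.4% of 22, and among those of members not called it was 38.9% of 36. Only 1 of 14 promoters of members called higher held it, that of Ifitm2. The STAT site was found in 15.3% of members' promoters and 7.02% of all promoters. These matches describe letters in a window and show no binding.

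Between EphB2 high and low cells, the base of the crypt against its upper part, 36 of the 75 members changed (limma, Benjamini-Hochberg adjusted over all genes). The background was 37.3% of all genes, against 48.0% of the members. Without the second high array, 20 members (26.7%) and 23.3% of all genes were called. Of the members, 23 were lower in high cells and 13 were higher; over all genes 15.3% were lower and 22.0% higher. The median difference of the members, high minus low, was -0.23, against 0.01 for all genes. Every called member had the same sign in both hybridizations, which adds little, because the calls were made on these same arrays. By more than 2-fold, 18 members were lower in high cells and 4 were higher. Of all 18193 genes, 1339 were called lower by as much. Genes called higher by as much were not counted, so the 4 have no background to be read against. Among the members, the Ifit, Oas and Mx genes held the largest of these differences. These are bulk samples, so fewer cells of a type and less RNA per cell cannot be told apart.

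**Figure D1:**
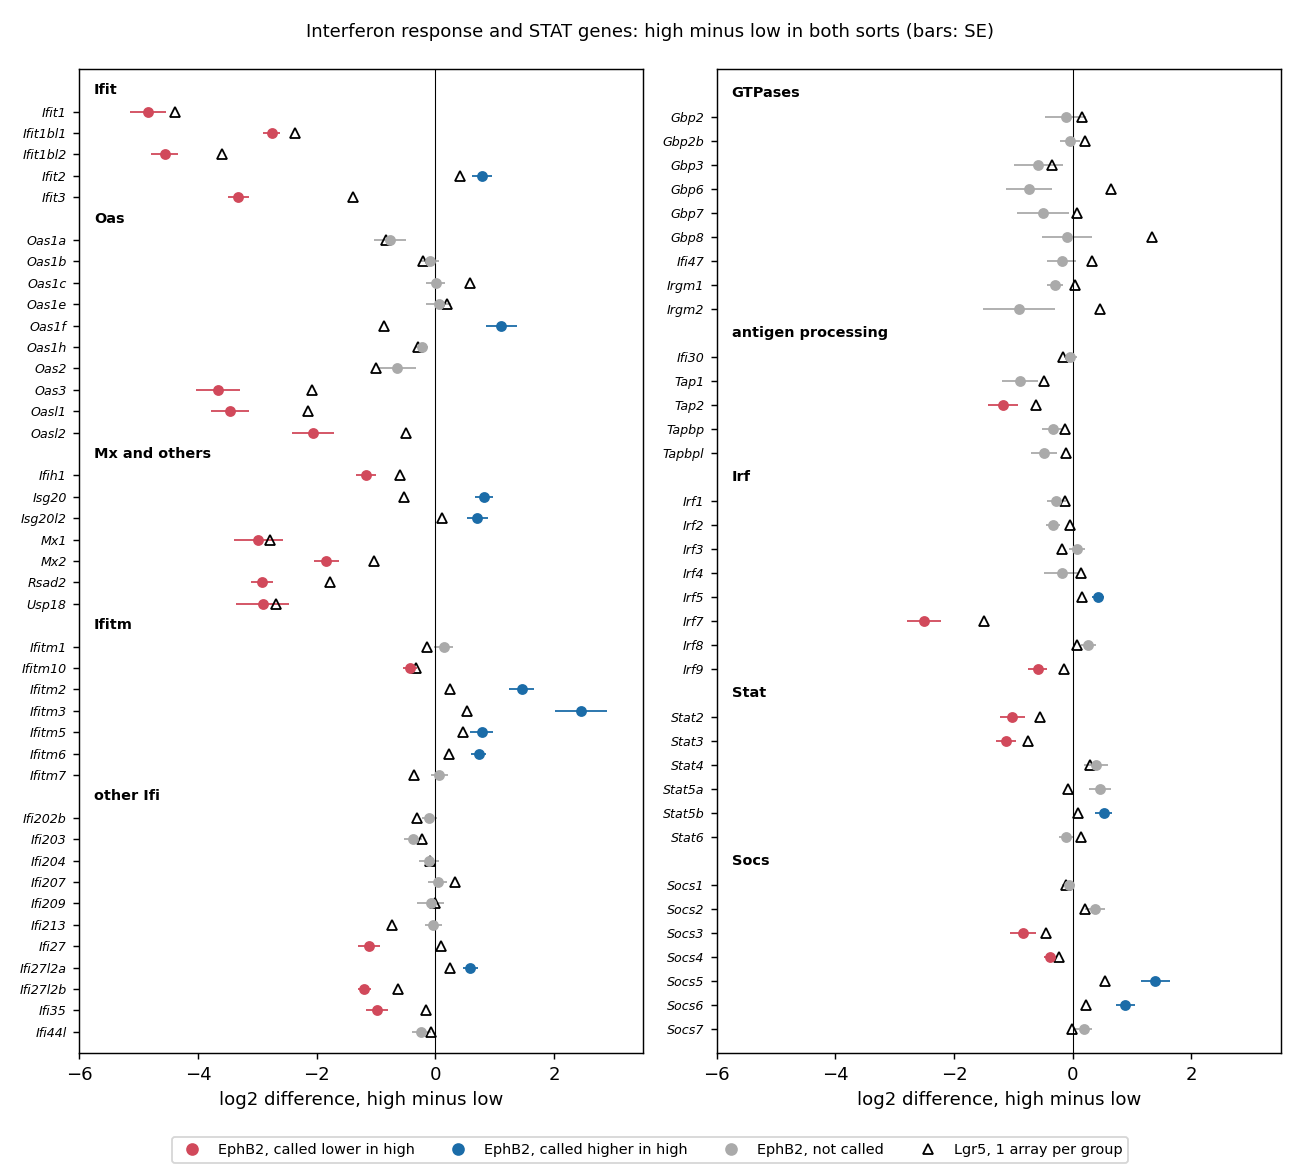
Log2 difference, high minus low, of all 75 members by role (horizontal axis). Circles with bars give the EphB2 difference and its standard error (n = 2 arrays per group), red where called lower, blue where called higher and grey where not called, and open triangles give the Lgr5 difference from 1 array per group. The Ifit, Oas and Mx groups reach furthest to the left, to -4.84 for Ifit1, and Ifitm3 furthest to the right, at 2.45.

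The Ifit genes encode proteins that bind foreign RNA and block its translation. All 5 changed between EphB2 high and low cells, 4 lower in high cells and 1 higher, where 37.3% of all genes changed. Ifit1 stood at 5.91 and 5.30 in high cells, 7.95 and 7.32 in medium cells, and 10.67 and 10.21 in low cells. Each group lay apart from the next, and Ifit1 was lower in high than in low cells by 4.84 ± 0.31 (28.6-fold; n = 2 arrays per group; adjusted p = 0.000364), the largest difference among the members. Ifit1bl2, which shares its promoter region with Ifit1 on the opposite strand, was at 6.66 and 7.33, then 8.99 and 9.20, then 11.54 and 11.58. It too rose from group to group without overlap, and its difference was -4.56 ± 0.23 (23.6-fold; adjusted p = 0.000227).

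Ifit3 measured 6.94 and 6.79 in high, 7.86 and 7.40 in medium and 10.16 and 10.20 in low cells, a difference of -3.32 ± 0.18 (9.95-fold; adjusted p = 0.000231). For this gene the low arrays stood far above the other 4. Ifit1bl1 was at 9.47 and 9.23, 10.56 and 10.37, and 12.00 and 12.22, and its difference was -2.76 ± 0.15 (6.79-fold; adjusted p = 0.000248). Its groups did not overlap either. Ifit1 and its like-named relatives are similar in sequence, so their probes may read more than 1 of them.

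Ifit2 lies next to Ifit3 on chromosome 19 and ran the other way. It read 7.38 and 7.59 in high, 6.74 and 6.92 in medium and 6.88 and 6.51 in low cells, below the median gene throughout. The high arrays were the brightest pair, by 0.79 ± 0.17 over low (1.73-fold; adjusted p = 0.0147). Its call was lost without the second high array (adjusted p = 0.0869) or the second low array (0.0574). No promoter of Ifit2 in the table held the ISRE core.

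The Oas family encodes enzymes that make a short-chain messenger which activates RNase L, and their relatives Oasl1, which lacks this activity, and Oasl2, which keeps it. Of 10 members, 4 changed between EphB2 high and low cells, 3 lower and 1 higher in high cells, and this 40.0% is near the 37.3% of all genes. Oas3 was at 5.75 and 4.79 in high, 6.93 and 6.97 in medium and 9.30 and 8.56 in low cells. No pair of groups overlapped, and the difference was -3.66 ± 0.37 (12.6-fold; adjusted p = 0.00133). Oasl1 rose in the same order, from 7.62 and 6.97 through 8.94 and 8.20 to 10.90 and 10.61, a difference of -3.46 ± 0.32 (11.0-fold; adjusted p = 0.00103). Oasl2 measured 9.11 and 8.26, 9.27 and 8.55, and 10.88 and 10.61, lower in high cells by 2.06 ± 0.35 (4.17-fold; adjusted p = 0.00640). Its high and medium arrays overlapped, and the low arrays stood above both.

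Oas1a and Oas2 differed between the hybridizations by about as much as between the groups. Oas1a was at 10.83 and 10.29 in high and 11.53 and 11.12 in low cells, a difference of -0.77 ± 0.27 (adjusted p = 0.0717). Oas2 was at 6.67 and 6.02 in high and 7.30 and 6.68 in low cells, a difference of -0.64 ± 0.32 (adjusted p = 0.179). With the hybridization as a replicate block both passed, with adjusted p of 0.00549 and 0.00900. Oas1f, at 5.34 and 5.59 in high, 5.70 and 5.24 in medium and 4.04 and 4.68 in low cells, was the member higher in high cells (by 1.11 ± 0.26; adjusted p = 0.0213). That call was lost without the first high array (0.0590), the second (0.110) or the first low array (0.0712). The other 4 Oas1 genes measured (Oas1b, Oas1c, Oas1e and Oas1h) differed by -0.23 to 0.06 and did not pass. The Oas1 genes are close copies, so their probe sets may share signal.

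Mx1 and Mx2 encode dynamin-like GTPases that trap viral nucleoproteins, Rsad2 encodes viperin, which makes a chain-terminating nucleotide, and Usp18 removes ISG15 and blocks the type I receptor. Mx1 stood at 6.20 and 5.45 in high, 7.29 and 6.64 in medium and 9.26 and 8.36 in low cells, a difference of -2.98 ± 0.41 (7.90-fold; adjusted p = 0.00305). The groups rose without overlap, though Mx1 was below the median gene in high and medium cells, and strain C57BL/6 carries a defective Mx1 allele. Rsad2 was at 7.09 and 7.03, 7.51 and 7.90, and 10.17 and 9.80, a difference of -2.92 ± 0.19 (7.59-fold; adjusted p = 0.000381). Usp18 followed at 7.15 and 6.34, 8.15 and 7.14, and 9.97 and 9.33, a difference of -2.91 ± 0.44 (7.51-fold; adjusted p = 0.00411). The second medium array of Usp18 fell level with the first high array, while the low arrays stood apart. Mx2 ran from 5.72 and 5.15 through 6.15 and 6.20 to 7.43 and 7.13, lower in high cells by 1.84 ± 0.21 (3.59-fold; adjusted p = 0.00190).

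Ifih1, the sensor of long double-stranded RNA, was at 10.17 and 9.79 in high, 10.36 and 10.19 in medium and 11.03 and 11.27 in low cells. Only the low arrays stood apart from the rest, and the difference was -1.17 ± 0.17 (2.26-fold; adjusted p = 0.00396). Isg20, an exonuclease, went the other way at 8.00 and 7.85, 7.72 and 7.69, and 7.26 and 6.95, higher in high cells by 0.82 ± 0.15 (1.76-fold; adjusted p = 0.00745). Isg20l2, a nucleolar exonuclease named for its likeness to Isg20, measured 11.33 and 11.67 in high, 11.44 and 11.67 in medium and 10.93 and 10.66 in low cells. It was higher in high than in low cells by 0.71 ± 0.18 (1.63-fold; adjusted p = 0.0261), a call lost without the second high (0.133) or second low array (0.117).

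**Figure D2:**
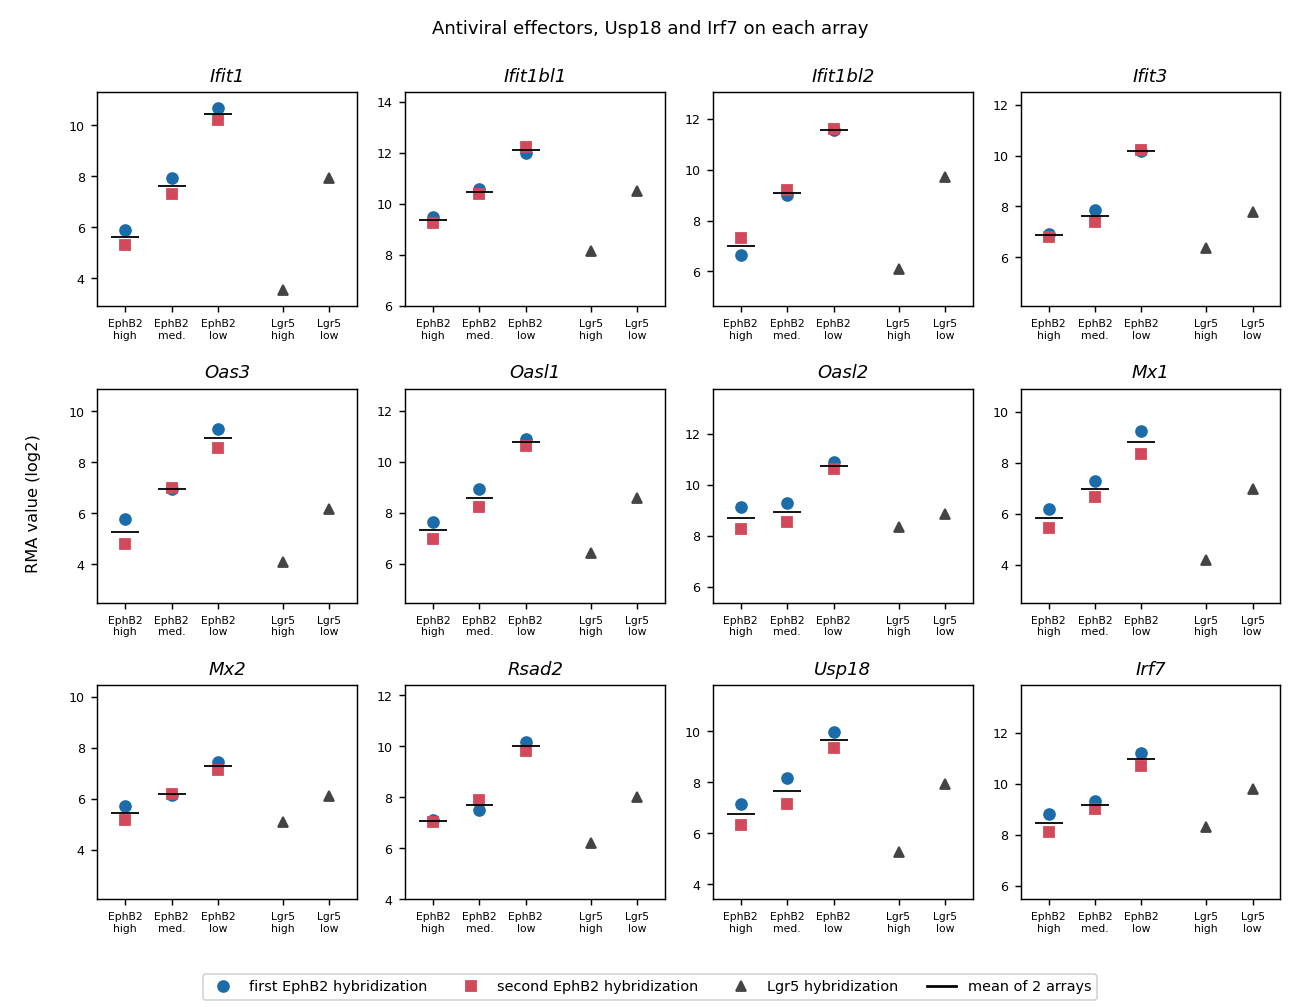
RMA log2 value (vertical axis, the same span in every panel) of 12 members on each of the 8 arrays, with circles and squares for the first and second EphB2 hybridization, triangles for the Lgr5 arrays and lines for the mean of 2 arrays. In each panel both EphB2 low arrays lie above all other EphB2 arrays, and the Lgr5 high array lies below the Lgr5 low array.

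The Ifitm genes encode small membrane proteins that stop viruses from fusing with the cell. Of 7 measured, 4 were higher in EphB2 high than in low cells and 1 was lower, where 22.0% and 15.3% of all genes were. Ifitm3 was at 13.21 and 13.31 in high, 12.92 and 12.71 in medium and 11.53 and 10.08 in low cells. High and medium arrays were near each other, the low arrays lay well below and apart, and the difference was 2.45 ± 0.44 (5.47-fold; adjusted p = 0.00795). It was 1.72 without the second low array and 3.18 without the first. Ifitm2 was at 12.64 and 12.65, 12.46 and 12.29, and 11.48 and 10.88, higher in high cells by 1.46 ± 0.21 (2.76-fold; adjusted p = 0.00363).

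The other Ifitm genes were dim, all below the median gene. Ifitm6 (5.14 and 5.29 in high, 4.59 and 4.43 in medium, 4.40 and 4.57 in low cells) was higher in high cells by 0.73 ± 0.13 (adjusted p = 0.00782). Ifitm5, known from bone-forming cells, was at 5.38 and 5.69, 4.88 and 5.21, and 4.89 and 4.62, a difference of 0.78 ± 0.19 (adjusted p = 0.0211). Both depended on single arrays: without the second high array the adjusted p was 0.0549 for Ifitm6 and 0.114 for Ifitm5, and without the second low array it was 0.0999 for Ifitm5. Ifitm10 was lower in high cells, at 5.73 and 5.72 against 6.11 and 6.20 in low cells (-0.43 ± 0.12; adjusted p = 0.0393), and lost its call whichever of the 6 arrays was left out (0.0527 to 0.151). Ifitm1 and Ifitm7 differed by 0.14 and 0.07 and did not pass. Ifitm2 and Ifitm3 are close in sequence, so their signals may not be separate.

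**Figure D3:**
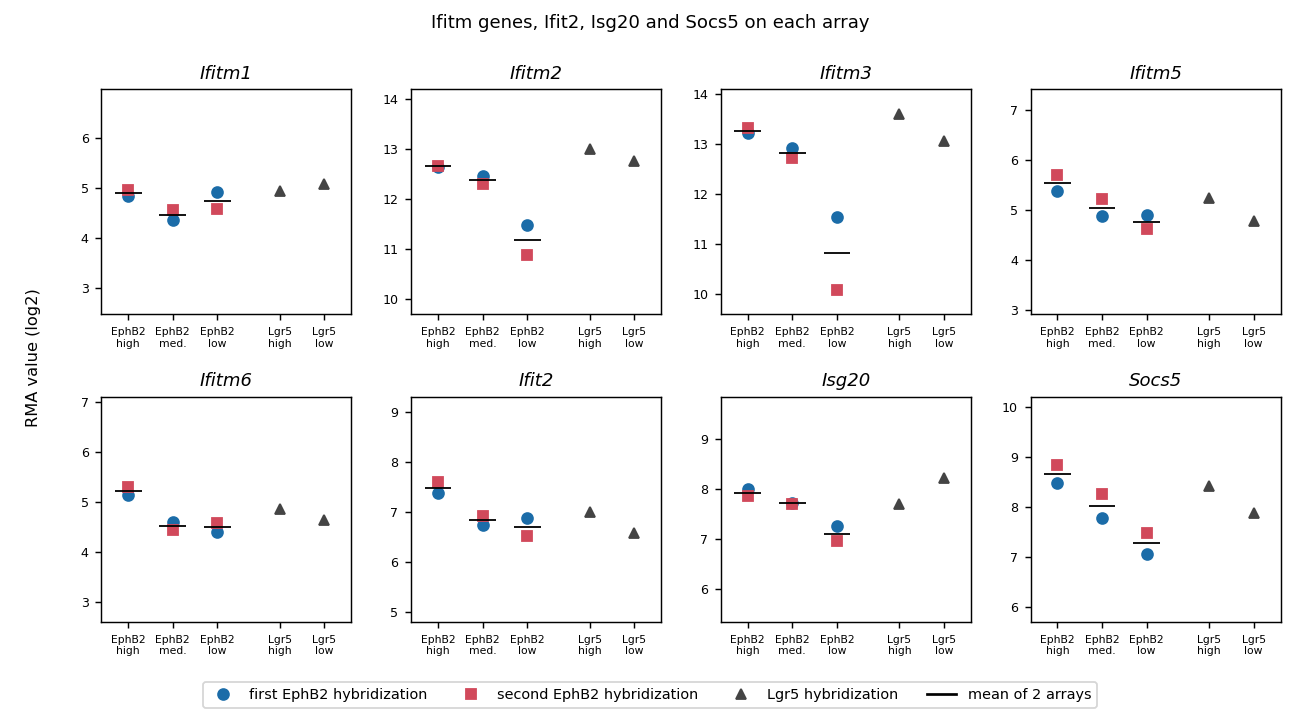
RMA log2 value (vertical axis, the same span in every panel) of 5 Ifitm genes, Ifit2, Isg20 and Socs5 on each of the 8 arrays, with circles and squares for the first and second EphB2 hybridization, triangles for the Lgr5 arrays and lines for the mean of 2 arrays. Apart from Ifitm1, whose groups overlap, both EphB2 high arrays lie above both low arrays, and the Lgr5 pair of Isg20 runs the other way.

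The remaining Ifi genes are a mixed group, of which 4 of 11 changed between EphB2 high and low cells, or 36.4%, near the 37.3% of all genes. Ifi27l2b, of the family of small mitochondrial and membrane proteins that also holds Ifi27, was at 12.41 and 12.31 in high, 12.80 and 12.71 in medium and 13.56 and 13.57 in low cells. Its groups rose in steps with replicates close together, a difference of -1.20 ± 0.11 (2.30-fold; adjusted p = 0.00104). Ifi27, its neighbour on chromosome 12, was at 10.75 and 10.58, 10.91 and 10.44, and 11.67 and 11.90 (-1.12 ± 0.19; 2.18-fold; adjusted p = 0.00664). Nearly all of its change, 99.1%, lay between medium and low cells. Ifi27l2a, on the other side of Ifi27, was higher in high cells at 8.42 and 8.36 against 7.75 and 7.74 in medium and 7.92 and 7.68 in low (0.59 ± 0.13; adjusted p = 0.0142). The call of Ifi27l2a was lost without the first high array (0.0750), the second (0.0646) or the second low array (0.0527).

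Ifi35, a partner of the signalling protein Nmi, was at 12.60 and 12.25 in high, 12.73 and 12.38 in medium and 13.52 and 13.28 in low cells. The low arrays stood above the rest by a difference of -0.98 ± 0.19 from high to low (1.97-fold; adjusted p = 0.0101), which missed the threshold without the second high array (0.0602). The 6 genes of the Ifi200 family, which sense DNA and regulate transcription (Ifi202b, Ifi203, Ifi204, Ifi207, Ifi209 and Ifi213), gave low signals, from 2.00 to 5.53 over the EphB2 arrays. Ifi44l lay between 2.55 and 3.13. These 7 differed between high and low cells by -0.37 to 0.04, and none passed.

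The interferon-inducible GTPases, which attack the vacuoles of intracellular pathogens and respond mainly to type II interferon, were measured as 9 genes. Over all genes, 37.3% were called between high and low cells, 1.36% between high and medium and 24.7% between medium and low. None of the 9 GTPases (Gbp2, Gbp2b, Gbp3, Gbp6, Gbp7, Gbp8, Irgm1, Irgm2 and Ifi47) passed in any EphB2 comparison. Their median difference was -0.30 between high and low cells. They also differed between hybridizations: 8 of 9 were brighter in the first in high cells and 8 of 9 in medium cells, by medians of 0.57 and 0.72. In low cells 6 of 9 were, by a median of 0.18. The source of this difference was not tested. Irgm2 was at 10.24 and 8.93 in high, 10.27 and 8.77 in medium and 10.71 and 10.28 in low cells. Its 4 high and medium arrays split by hybridization, and high minus low was -0.91 ± 0.61 (adjusted p = 0.308).

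Gbp3 was at 6.78 and 5.91 in high, 6.55 and 5.80 in medium and 7.27 and 6.57 in low cells. Gbp6 was at 8.07 and 7.50, 8.01 and 6.99, and 8.78 and 8.27. Gbp7 was at 8.98 and 8.11, 8.93 and 8.20, and 9.52 and 8.57. Within each hybridization the low array was the brightest for all 3, and with the replicate block they passed between high and low cells (-0.58 ± 0.10, -0.74 ± 0.16 and -0.50 ± 0.11; adjusted p of 0.0127, 0.0223 and 0.0223). Between medium and low cells they passed with the block too, with adjusted p of 0.0132, 0.0164 and 0.0346. Irgm1 and Ifi47, bright at 9.37 to 9.88 and 10.49 to 11.25, differed by -0.30 ± 0.14 and -0.19 ± 0.24 and passed with neither fit. Gbp genes are close copies, and a second probe set of Gbp2 read -0.86 ± 0.26 against -0.12 ± 0.35 for the one used.

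**Figure D4:**
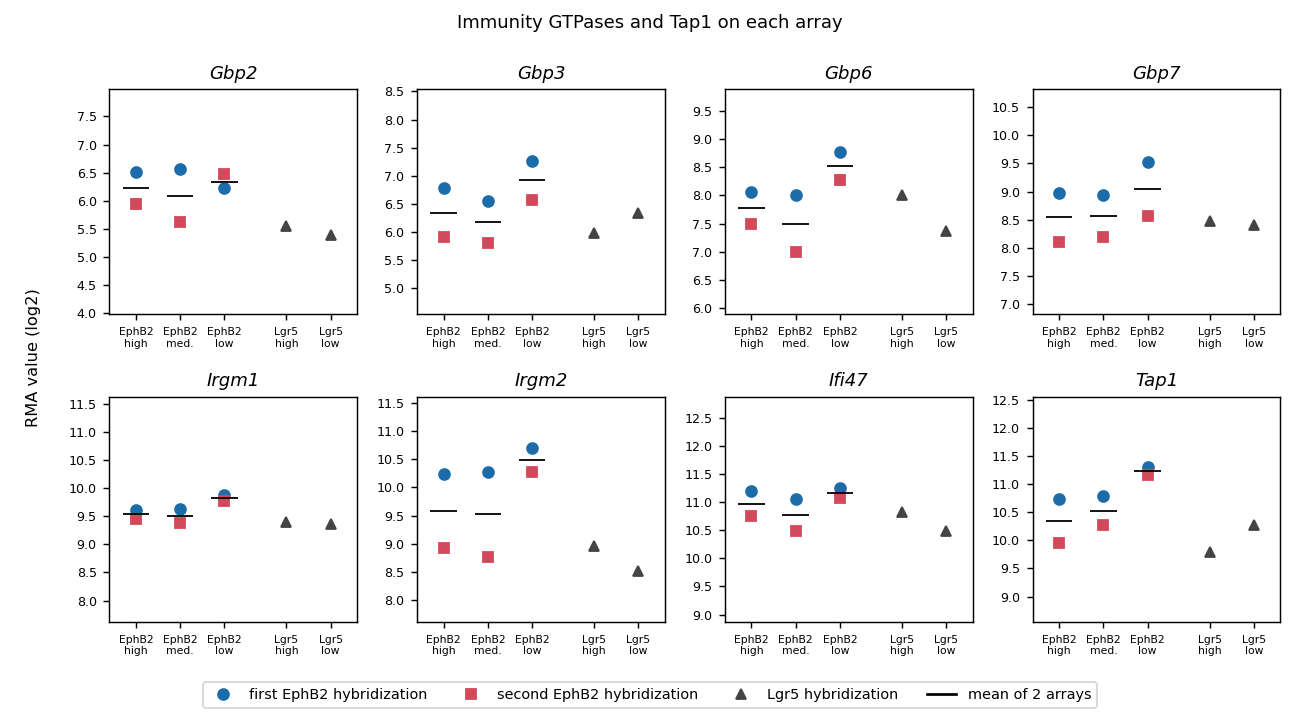
RMA log2 value (vertical axis, the same span in every panel) of 7 interferon-inducible GTPases and Tap1 on each of the 8 arrays, with circles and squares for the first and second EphB2 hybridization, triangles for the Lgr5 arrays and lines for the mean of 2 arrays. In high and medium cells the circles lie above the squares in every panel, by 1.31 for Irgm2 in high cells.

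The 5 genes of antigen processing all lay above the median gene. Tap2, 1 of the parts of the transporter that carries peptides into the endoplasmic reticulum, was at 7.90 and 7.42 in high, 8.11 and 7.72 in medium and 9.07 and 8.61 in low cells. Its low arrays stood apart, and it was lower in high cells by 1.18 ± 0.25 (2.27-fold; adjusted p = 0.0131), a call lost without the second high (0.0714) or first low array (0.0583). Tap1, the other part of the transporter, was at 10.74 and 9.95, 10.79 and 10.27, and 11.30 and 11.17, a difference of -0.89 ± 0.30 (adjusted p = 0.0633). It passed with the replicate block (0.0186). Dimmer probe sets of Tap1 read -0.17 ± 0.15, 0.05 ± 0.21 and 0.04 ± 0.18. With the mean over its probe sets Tap1 did not pass (adjusted p = 0.363). Tapbp and Tapbpl, which edit the bound peptide, differed by -0.34 ± 0.18 and -0.48 ± 0.22, and the thiol reductase Ifi30 by -0.04 ± 0.11, none of them called.

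Of the 8 Irf transcription factors, 3 changed between EphB2 high and low cells, or 37.5%, near the 37.3% of all genes. Irf7, which amplifies type I interferon production and is itself induced by interferon, was at 8.81 and 8.12 in high, 9.33 and 9.02 in medium and 11.23 and 10.72 in low cells. All 3 groups were apart, with a difference of -2.51 ± 0.29 (5.70-fold; adjusted p = 0.00182). Irf9, the DNA-binding part of the complex that recognises the ISRE, was at 9.53 and 9.40, 9.84 and 9.50, and 10.15 and 9.95 (-0.59 ± 0.16; 1.51-fold; adjusted p = 0.0327). Irf5 was higher in high cells by 0.43 ± 0.10, at 10.34 and 10.32, 10.26 and 10.27, and 9.88 and 9.92 (adjusted p = 0.0228). These smaller changes were less secure: Irf9 lost its call without either high array (0.0860 and 0.152) or either low array (0.122 and 0.0586), and Irf5 without any 1 of the 6 (0.0511 to 0.104). With the mean over its probe sets Irf5 differed by 0.26 (0.249).

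The other 5 Irf genes did not pass. Irf1, Irf2, Irf3 and Irf8 were bright, between 11.26 and 12.25 on all EphB2 arrays, and differed by -0.28, -0.33, 0.07 and 0.26. A second, dimmer probe set of Irf8 pointed the other way (-0.31 ± 0.17). Irf4, a factor of lymphocytes, was dim, at 4.81 or below.

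Of the 6 Stat genes measured, 3 changed between EphB2 high and low cells, where 37.3% of all genes did. Stat3, which carries signals of interleukin-6 and interleukin-22 in epithelium, was at 8.98 and 8.67 in high, 9.41 and 9.14 in medium and 10.03 and 9.88 in low cells. The groups rose without overlap, a difference of -1.13 ± 0.17 (2.19-fold; adjusted p = 0.00382). Stat2, which acts in type I and III interferon signalling, was at 7.70 and 7.73, 8.11 and 7.70, and 8.96 and 8.52, with only the low arrays apart (-1.02 ± 0.21; 2.03-fold; adjusted p = 0.0118). Its call was lost without the first (0.0586) or second high array (0.0591).

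Stat5b was higher in high cells, at 9.45 and 9.61, 9.21 and 9.51, and 9.04 and 8.98 (0.52 ± 0.14; 1.43-fold; adjusted p = 0.0360). It lost its call without either high array (0.0803 and 0.172) or either low array (0.0834 and 0.125), and a dimmer probe set of it read -0.47 ± 0.26, so that the mean over both gave 0.02 (0.936). Stat5a, its neighbour and near copy, was at 9.75 and 10.21 in high and 9.56 and 9.48 in low cells, which did not pass (0.46 ± 0.19; adjusted p = 0.119). Stat6 did not pass (-0.11 ± 0.12). Stat4, with a low signal of 2.91 to 3.70, passed only with the replicate block (0.39 ± 0.11; adjusted p = 0.0437).

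The Socs genes, inhibitors of cytokine receptors and their kinases, split by direction. Socs5 was at 8.48 and 8.84 in high, 7.77 and 8.25 in medium and 7.05 and 7.48 in low cells, the second hybridization being brighter in each. It was higher in high than in low cells by 1.39 ± 0.24 (2.63-fold; adjusted p = 0.00654). Socs6 was higher too, at 9.49 and 9.73, 9.35 and 9.69, and 8.78 and 8.67 (0.88 ± 0.16; 1.85-fold; adjusted p = 0.00827), a call lost without the second high array (0.0550). Socs3, the feedback inhibitor of STAT3 signalling, ran with Stat3 at 10.16 and 9.80, 10.63 and 10.21, and 10.99 and 10.64, lower in high cells by 0.84 ± 0.22 (1.79-fold; adjusted p = 0.0285). Its call was lost without the second high (0.145) or first low array (0.117).

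Socs4 was lower in high cells by 0.38 ± 0.11, at 10.45 and 10.43, 10.61 and 10.70, and 10.83 and 10.82 (adjusted p = 0.0354). Leaving out any 1 of the 6 arrays ended that call (0.0682 to 0.147). Dimmer probe sets of Socs4 read -0.91 ± 0.12, -0.83 ± 0.16 and -0.37 ± 0.20, and the mean over its probe sets passed (adjusted p = 0.00845). Socs1, the main inhibitor of interferon receptors, was dim and flat at 5.09 to 5.22, and its difference was -0.07 ± 0.11. Socs2, at 12.13 to 12.74, and Socs7 differed by 0.38 ± 0.17 and 0.18 ± 0.15 and did not pass. Dimmer probe sets of Socs2 read 1.03 ± 0.24, 0.59 ± 0.14, 0.54 ± 0.18, 0.32 ± 0.14 and -0.15 ± 0.14. With the mean over its probe sets Socs2 passed as higher in high cells (adjusted p = 0.0287).

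Between EphB2 high and medium cells, the lower part of the crypt, 3 of 75 members changed, all lower in high cells, where 1.36% of all genes were called and 1.15% were called lower. They were Ifit1 (-2.03 ± 0.31; adjusted p = 0.0495), Ifit1bl1 (-1.12 ± 0.15; 0.0374) and Ifit1bl2 (-2.10 ± 0.23; 0.0234). An unadjusted p under 0.05 was reached by 20 members and 2579 of all genes. These calls were fragile, because leaving out any 1 array left 0 or 1 of them. Without the first or second high array, Ifit1 had adjusted p of 0.0966 and 0.270 and Ifit1bl1 of 0.104 and 0.244. Leaving out a medium array gave 0.125 to 0.219 over the 3 genes, and leaving out a low array 0.0628 to 0.0833. With the mean over probe sets Ifit1bl2 missed the threshold (0.0537). With the replicate block Ifit1bl1 missed it (0.0596), and Mx1 (-1.14 ± 0.11; 0.0338) and Oasl1 (-1.27 ± 0.15; 0.0453) passed it.

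Between EphB2 medium and low cells, the upper part of the crypt, 25 members changed, 33.3% against 24.7% of all genes. Of these, 19 were lower in medium cells, where 10.1% of all genes were, and 6 were higher, where 14.6% of all genes were. Ifit1 was lower by 2.81 ± 0.31 (6.99-fold; adjusted p = 0.00468), Ifit3 by 2.55 ± 0.18 (5.86-fold; 0.00185) and Rsad2 by 2.28 ± 0.19 (4.86-fold; 0.00253). The higher ones were Ifitm3 (2.01 ± 0.44; 0.0247; 1.28 without the second low array and 2.74 without the first), Ifitm2 (1.19 ± 0.21; 0.0136), Oas1f (1.11 ± 0.26; 0.0311), Socs6 (0.80 ± 0.16; 0.0195), Isg20l2 (0.76 ± 0.18; 0.0297) and Isg20 (0.60 ± 0.15; 0.0327). The other 16 members lower in medium cells ranged from a difference of -2.46 for Ifit1bl2 to -0.68 for Stat3, and the antiviral effectors Oasl1, Usp18, Oas3, Mx1 and Oasl2 lay between -2.19 and -1.83.

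The calls of Ifit1, Ifit1bl1, Ifit1bl2, Ifit3, Oasl1 and Rsad2 between medium and low cells held with each of the 6 arrays left out in turn. The other 19 were all lost without the second medium array (adjusted p of 0.0560 to 0.193), and 13 without the first (0.0544 to 0.135). Without the first or second low array 10 were lost each time (0.0541 to 0.151 and 0.0581 to 0.129), and without either high array 5 (0.0506 to 0.0675). With the mean over probe sets Stat2 (0.0829) and Stat3 (0.0602) did not pass. With the replicate block a further 9 passed: Gbp3, Gbp6, Gbp7, Oas1a (0.0144), Oas2 (0.0301), Socs3 (0.0414), Socs5 (0.0126), Stat4 (0.0446) and Tap1 (0.0485).

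The larger part of the change lay between medium and low cells. For the 18 members lower in high than in low cells by over 2-fold, 54.0% to 99.1% of the difference was between medium and low, with a median of 68.0%, and it was over 50% in all 18. This is near the background: of 1339 genes called lower by as much, 82.1% had over 50% of the difference there, with a median of 66.0%. Oas3 and Ifit1bl2, each at 54.0%, changed most evenly along the axis, and Oasl2 (89.0%) and Ifi27 were closest to a single step. The group means rose from high through medium to low for all 23 members called lower, as for 91.0% of all genes called lower. Among the 13 called higher the means fell in order for 10, against 95.3% of genes. The exceptions were Ifi27l2a, Isg20l2 and Oas1f.

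The Lgr5 sort gave a second view of the crypt base from other animals, with 1 array per group and so with no test. A 2-fold difference was passed by 13 members, where 7.41% of all genes passed it. At 1.5-fold 22 members passed, but the share of all genes at that threshold was not counted. Only 4 of the 13 had a brighter Lgr5 array above 8.23, the median of that brighter value over all genes. The rest of the 13 lay below this level on both Lgr5 arrays. Among the 13, 12 were lower in the Lgr5 high array, where 5.07% of all genes were, and 1 was higher, where 2.34% of all genes were. Ifit1 was at 3.55 in Lgr5 high and 7.94 in Lgr5 low cells (21.0-fold), Ifit1bl2 at 6.11 and 9.70 (12.1-fold), and Mx1 at 4.17 and 6.96 (6.90-fold). All 3 were lower in Lgr5 high cells than in any EphB2 array.

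Usp18 was at 5.25 in Lgr5 high and 7.93 in Lgr5 low cells (6.41-fold), Ifit1bl1 at 8.15 and 10.51 (5.15-fold) and Oasl1 at 6.43 and 8.58 (4.42-fold). Oas3 was at 4.07 and 6.15 (4.22-fold), Rsad2 at 6.22 and 7.99 (3.40-fold) and Irf7 at 8.31 and 9.81 (2.82-fold). Ifit3 (6.39 and 7.77; 2.60-fold), Mx2 (5.08 and 6.11; 2.05-fold) and Oas2 (6.13 and 7.13; 2.00-fold) complete the 12, the last at the threshold itself. The 13th, Gbp8, was dim and higher in Lgr5 high cells (5.84 against 4.50; 2.53-fold).

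Of the 23 members called lower in EphB2 high cells, 22 were lower in Lgr5 high cells, 95.7% against 89.6% of all genes so called. Of the 13 called higher, 11 were higher there, 84.6% against 85.2%. Ifitm3 (13.60 against 13.06) and Ifitm2 (13.00 against 12.76) were higher in Lgr5 high cells by less than in the EphB2 sort, and Oasl2 was lower by 0.50. Ifi27, Isg20 and Oas1f ran against their EphB2 direction. The 2 sorts differ in mouse line, sort marker and hybridization together, so the sources of a difference between them cannot be told apart. Among genes of absorptive cells the gap between the sorts varied. Apoa4 was at 8.25 in Lgr5 high and 13.29 in Lgr5 low cells. In EphB2 high cells it was at 10.07 and 10.05, and in EphB2 low cells at 14.13 and 14.06. Fabp2 was at 13.40 in Lgr5 high against 13.42 and 13.60 in EphB2 high cells.

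Genes upstream of the members were read from a list of receptors, kinases, sensors and adaptors. Of 35 measured, 21 changed between EphB2 high and low cells, 17 lower and 4 higher in high cells, where 37.3% of all genes changed, 15.3% lower and 22.0% higher. The median of the list was -0.72, against 0.01 for all genes. Il10rb and Ifnlr1, the chains of the type III interferon receptor, the former shared with the receptors of interleukin-10 and interleukin-22, were lower in high cells by 1.56 ± 0.14 (adjusted p = 0.000896) and 1.94 ± 0.18 (0.00110). Il10rb was at 9.98 and 10.04 in high, 10.40 and 10.57 in medium and 11.45 and 11.69 in low cells. Ifnlr1 was at 7.06 and 7.20, 7.79 and 7.84, and 8.82 and 9.32. Both rose from group to group without overlap, whereas in the Lgr5 sort Ifnlr1 was lower in high cells by 0.54 and Il10rb was higher by 0.29.

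Ddx58, the gene of the RNA sensor RIG-I, was at 7.86 and 7.94 in high, 8.22 and 8.41 in medium and 9.71 and 10.19 in low cells (-2.05 ± 0.19; adjusted p = 0.000967). Jak2, a kinase of the type II receptor, was at 11.16 and 11.13, 11.46 and 11.61, and 12.29 and 12.49 (-1.25 ± 0.13; adjusted p = 0.00137). The 4 genes higher in high cells, named after their values were seen, were Cgas, Sting1, Pias2 and Ptpn2. Cgas, which senses DNA in the cytosol, was at 10.47 and 10.42, 9.96 and 9.87, and 8.35 and 7.51 (2.51 ± 0.27; adjusted p = 0.00151). Sting1, which relays its signal, was at 8.15 and 7.84, 7.62 and 7.13, and 6.39 and 5.32 (2.14 ± 0.37; adjusted p = 0.00683). This pair thus ran opposite to the RNA sensors Ifih1 and Ddx58.

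A list of other interferon-induced genes gave 46 measured members, of which 21 changed between EphB2 high and low cells, all lower in high cells. This is 45.7%, against 37.3% of all genes called and 15.3% called lower, and the median was -0.46 against 0.01. Ido1, the tryptophan-degrading enzyme, was at 5.73 and 4.84 in high, 9.35 and 10.20 in medium and 11.36 and 10.86 in low cells (-5.83 ± 0.40; adjusted p = 0.000465). Its larger step lay between high and medium cells, at -4.49 ± 0.40. Herc6, the mouse ligase for ISG15, was lower in high cells by 3.31 ± 0.21 (0.000338), the chemokine Cxcl11 by 3.81 ± 0.28 (0.000531) and Cmpk2, which lies beside Rsad2, by 2.05 ± 0.19 (0.000981). Together with the members these lists were drawn up with earlier results of these data known.

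Markers of other cells were read beside the members. Of 11 T cell and intraepithelial lymphocyte genes measured, 4 were lower in EphB2 high than in low cells, 36.4% against 15.3% of all genes lower and 37.3% called: Cd52 (-1.72 ± 0.16; adjusted p = 0.00112), Cd7 (-0.89 ± 0.14; 0.00498), Gzma (-2.04 ± 0.50; 0.0233) and Cd3d (-0.75 ± 0.21; 0.0334). The mean over the 11 was 4.57 and 4.51 in high, 4.73 and 4.56 in medium and 5.14 and 4.96 in low cells. Ptprc, which all white blood cells express, was at 3.49 and 3.40 in high and 3.61 and 3.63 in low cells and did not pass. In the Lgr5 sort, with 1 array per group, the list's mean was 5.18 in high and 4.79 in low cells. Gzma, at 7.05 against 4.04, was the only 1 of the 11 past 2-fold. The others went both ways, from -0.39 for Cd3e to 0.67 for Itgae and Cd2, with Ptprc at -0.20. Of 5 B cell genes, Cd79b was higher in EphB2 high cells (0.99 ± 0.23; adjusted p = 0.0194) and the others did not pass. Of 12 myeloid genes, Cd68 was higher (1.44 ± 0.40; 0.0361) and C1qc lower (-0.47 ± 0.13; 0.0331) in high cells. None of the 10 markers of stroma and endothelium passed. Vim, the one above the median gene, was at 9.77 and 8.45 in high, 10.92 and 9.22 in medium and 10.80 and 9.70 in low cells (-1.14 ± 0.72; 0.280), and at 7.59 in Lgr5 high against 11.05 in Lgr5 low cells. The part of these cells in the members' values was not tested.

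All 7 enterocyte genes measured were lower in EphB2 high than in low cells, and all 6 crypt base genes were higher. Over all genes 15.3% were lower and 22.0% higher. The mean of the enterocyte list was 11.36 and 11.27 in high and 13.80 and 13.84 in low cells, so this list and the antiviral members rose together over the groups. A larger share of absorptive cells and a higher level in each cell cannot be told apart in these samples.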

How the data were processed

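RNA of sorted intestinal epithelial cells was measured on 8 Affymetrix arrays. Per the submitters' processing notes, the authors made the deposited log2 values with RMA, which corrects background, quantile-normalizes the arrays and summarizes each probe set. Neither its version nor joint normalization of all arrays is given in the sources used here. Because RMA evens out array distributions, differences in the total RNA of a cell are hidden. The number of arrays limits the precision.

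Of 45101 probe sets, 34945 named 1 gene in the platform annotation, 932 named several, and 64 were controls. Each of 18193 genes was read from the single-gene probe set of highest mean over the 6 EphB2 arrays, without a filter on dim genes. Of the 75 members, 28 had further probe sets, and 10 of those had one of opposite sign between EphB2 high and low cells; of these 10, only Stat5b was called. No symbol changed on matching to RefSeq.

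EphB2 groups were compared in limma 3.58.1 under R 4.3.3 (lmFit, contrasts.fit, eBayes; 2-sided; 3 residual degrees of freedom), with Benjamini-Hochberg adjustment over all genes and a call at an adjusted p below 0.05. Errors are limma's standard errors. The fit was tested on simulated data. The Lgr5 arrays were compared by a fold threshold of 2. Members called in any EphB2 comparison are given by array. The rule for the named genes of the upstream and interferon-induced lists took the 4 of smallest p between EphB2 high and low cells. The members, the 9 gene lists and the tests were chosen with earlier results of these data known. The labels tie each replicate number to a shared hybridization, and deviations of same-numbered arrays from their group means correlated at 0.45 (high and medium), 0.13 (high and low) and 0.21 (medium and low). A fit with that number as a block was an alternative, with leave-one-out fits, repeated quantile normalization, a filter on dim genes and the mean over probe sets.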

Additional observations from a re-analysis of the deposited data

Results flagged for a closer look

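Between the Lgr5 arrays 3 members ran against the direction that both EphB2 hybridizations gave. Ifi27, lower in EphB2 high cells by 1.12 ± 0.19, was at 10.74 in Lgr5 high and 10.65 in Lgr5 low cells, a difference of 0.09. Isg20, higher in EphB2 high cells by 0.82 ± 0.15, was at 7.70 in Lgr5 high and 8.22 in Lgr5 low cells, a difference of -0.53. Oas1f, higher in EphB2 high cells by 1.11 ± 0.26, was at 5.42 and 6.29, a difference of -0.87. With 1 array per Lgr5 group the difference between the sorts was not tested. Oas1f and Isg20 lie below the median gene.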

How the results depend on the processing

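Of 75 members, 36 were called between EphB2 high and low cells, and leaving out 1 array in turn gave 20 to 33, the fewest without the second high array. Between high and medium cells 3 were called, and 0 to 1 with an array left out. Between medium and low cells 25 were called, and 6 to 20 with an array left out, the fewest without the second medium array. Each such fit has 1 residual degree of freedom fewer, and the lone array of a group is assumed to vary like the others. The called share of all genes fell in every such fit too. Between high and low cells the members' share stayed above it each time. Between medium and low cells the members' share fell below that of all genes without the first low array, and otherwise stayed above. Between high and medium cells it stayed above only where a high array was left out. The replicate block gave 43, 4 and 34 calls in the 3 comparisons, or 57.3%, 5.33% and 45.3% of members. Over all genes it called 41.0%, 1.21% and 27.9%. Of the 64 member calls of the main fit, it kept 63 and lost Ifit1bl1 between high and medium cells. Repeated quantile normalization gave 33, 3 and 24 calls, losing Ifi27l2a, Irf5 and Stat5b between high and low cells and Isg20 between medium and low cells. The mean over probe sets gave 35, 2 and 24, losing Irf5 and Stat5b, then Ifit1bl2, then Stat2 and Stat3. The filter on dim genes, by the mean over the EphB2 arrays, left 44 members, of which 29, 3 and 21 were called. These were 65.9%, 6.82% and 47.7% of the members left, near the 63.1%, 5.01% and 49.0% of all genes left. The filter removed Ifit1, Mx1, Mx2 and Oas3, whose low values leave their folds uncertain. No call changed direction under any of these. Past 2-fold between the Lgr5 arrays, 13 members became 22 at 1.5-fold and 11 after repeated quantile normalization. The count was 4 when the brighter Lgr5 array had to exceed the median of such values over all genes. That filter is another than the one on the EphB2 mean. The share of all genes was counted for the 13 only, so the other counts have no background.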
